A study of Mus musculus with 4 samples.

Results

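The complement system was described in the pregnant mouse uterus by 34 genes for its components, regulators and receptors. They were taken by symbol from a list that follows the known steps of the cascade, out of 55421 genes counted in each library. The libraries came from uteri of 2 WT mice (C57BL/6J) and 2 Qa-2- mice (B6.Cg-H2b3/FlaCmwJ, also called B6.K1), all pregnant by matings within their own strain and collected at gestational age E18.5. The libraries are called WT 1, WT 2, Qa-2- 1 and Qa-2- 2 by group and replicate number. Qa-2 is a set of non-classical MHC class I molecules, and B6.K1 is a congenic strain of the H2 complex that lacks the genes for them. One poly(A)-enriched, strand-specific library was made per mouse from a small piece of frozen uterus, and no agent was given. The strains came from different suppliers, so supplier and genotype cannot be told apart, and any difference in the congenic segment besides Qa-2 is carried by both Qa-2- mice.

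Complement is a cascade of plasma and tissue proteins in which recognition molecules or spontaneous turnover lead to cleavage of C3, after which the terminal components can form a pore in a membrane. The classical branch starts with C1q bound to antibody or to altered cell surfaces, the lectin branch with collectins and ficolins bound to sugars, and the alternative branch amplifies C3 cleavage through factor B and factor D. Most plasma complement is made in the liver, but macrophages make C1q and properdin locally, and C3 is known as an estrogen-regulated secretory product of the uterine epithelium.

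Total counts were between 33286390 and 41041299 read pairs per library, so that 1 CPM, on library sizes scaled by TMM as all CPM here, stood for 35.0 to 40.1 read pairs, and both WT libraries were the deeper ones. Values of up to 3 counts were taken as the floor, a limit for counting error alone. The Qa-2 genes H2-Q6 and H2-Q7 followed the labels, with 1192 to 6318 counts in the WT libraries and 2 to 4 counts in the Qa-2- libraries, while H2-Q8 and H2-Q9 were not analysed here. All 6 uterus identity genes (Esr1, Pgr, Hoxa10, Hoxa11, Oxtr and Hoxd10) were above the expression filter. Of 8 trophoblast markers, 1 passed it (Tpbpa) and 3 had no count in any library, but WT 2 stood apart, since the list summed to 0.399, 20.0, 3.55 and 0.172 CPM in WT 1, WT 2, Qa-2- 1 and Qa-2- 2. Psg21 and Prl3b1 were counted in WT 2 alone (308 and 155 counts). Fewer cells of a type and less RNA per cell cannot be told apart in bulk tissue.

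Of the 34 complement genes, 26 passed a filter of 1 CPM or more in 2 or more libraries and were among the 14492 genes tested, as WT over Qa-2-. Components of the classical branch, membrane-bound CD59 and the C1 inhibitor were higher in both WT uteri, and C3 was higher in both Qa-2- uteri. None of the 26 reached an adjusted p under 0.05 in the quasi-likelihood test of edgeR after Benjamini-Hochberg adjustment, and neither did any other gene (0.0% of genes tested). At an unadjusted p under 0.05, 10 of the 26 were higher in WT (38.5%, against 8.09% of all genes tested), and 0 were higher in Qa-2- uteri, where the share of all genes was 7.09%. Without Qa-2- 2 the count fell to 2 of 26 (7.69%, Cd59a and Clu), against 3.09% of all genes. With library totals in place of TMM it was 9 of 26, when 5.88% of all genes passed this p as higher in WT, and 10.1% as higher in Qa-2- uteri. Both WT libraries lay above both Qa-2- libraries for 17 of the 26 (65.4%, against 25.4% of all genes), and the reverse order was seen for 2 (7.69%, against 24.5%). The other 7 overlapped. The median log2 fold change of the 26 was 0.74, with a range from -2.45 to 2.22, beside 0.01 over all genes tested. The 26 passed the filter partly through the libraries in which they were high, and several are neighbours or products of the same cells, so they are not independent of each other.

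DESeq2 called 7 of the 26 at an adjusted p under 0.05. Serping1, Cd59a, C1qb, C1qa, Masp1 and C4b were higher in WT (6 genes, where 2.79% of all genes were called), and C3 was higher in Qa-2- uteri (1 gene, against 2.04%). Over the alternatives, the adjusted p of these 7 genes lay between 0.00283 and 0.835. An exact permutation test on 1 gene, 2 mice against 2, cannot give a two-sided p under 0.33, so the edgeR values rest on a spread that is estimated with the help of all genes. WT 2, the library with the most trophoblast RNA, was the highest for 15 of the 26 genes, and Qa-2- 2 was the lowest for 17. The same counts over all genes were not made, so these do not set the members apart from other genes. The part of trophoblast RNA in these values was not tested. Leaving out 1 library moved the log2 fold change by more than 1.5 times for 19 of the 26 genes, and not for C1qa, C1qb, C1ra, C1rl, C3, Cd59a and Serping1.

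**Figure D1:**
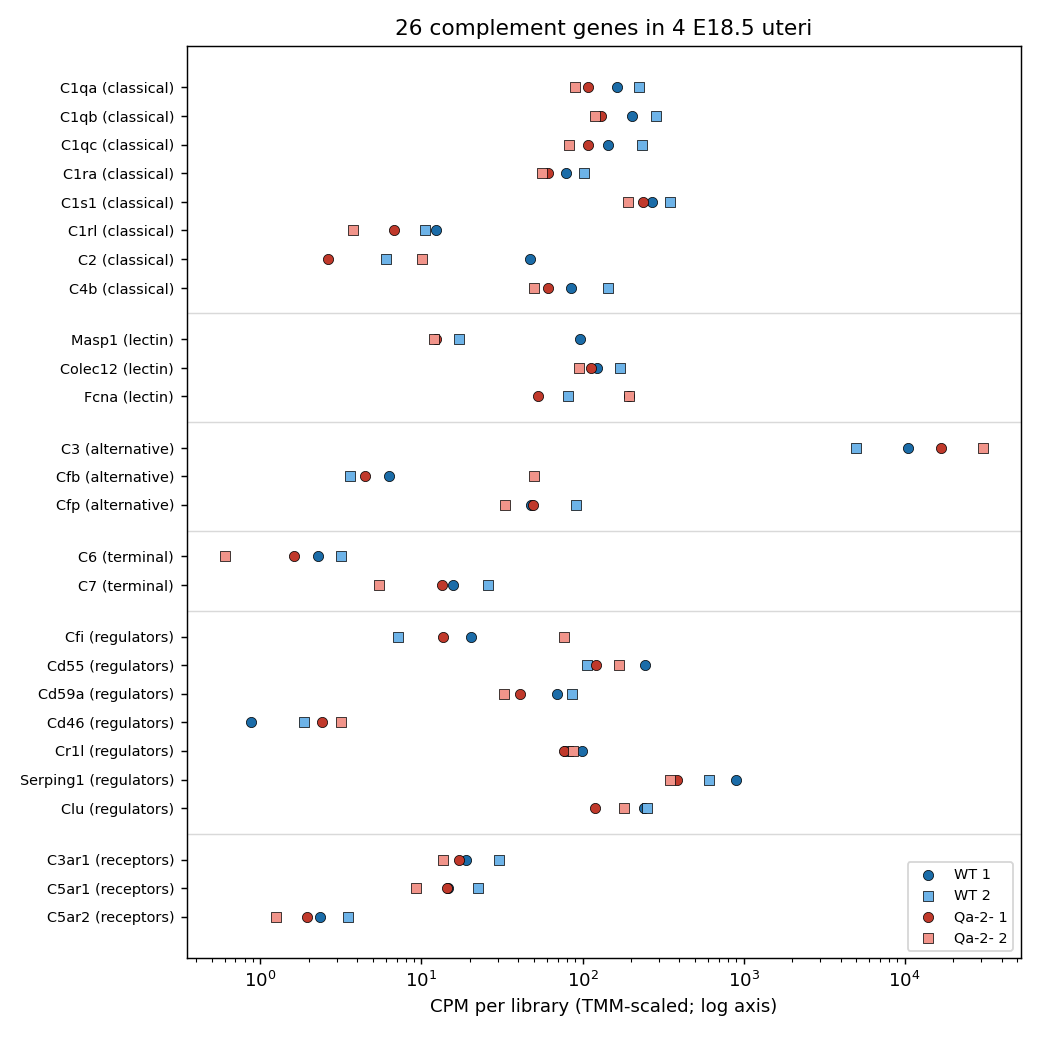
Each of the 26 complement genes above the filter is a line of 4 points, the CPM on TMM-scaled library sizes in each library on a log axis, ordered by branch of the cascade (WT 1 and WT 2 blue, Qa-2- 1 and Qa-2- 2 red). C3 lies far to the right of all others, from 5007 CPM (WT 2) to 30494 CPM (Qa-2- 2), and the C1q genes show both blue points to the right of both red ones.

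The classical branch held 6 of the 10 genes at an unadjusted p under 0.05. Of its 9 genes, 8 were tested, all 8 had a log2 fold change above 0, 6 had an unadjusted p under 0.05 (8.09% of all genes, higher in WT), and 7 had both WT libraries above both Qa-2- libraries (25.4% of all genes). Their median log2 fold change was 0.97.

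The 3 chains of C1q, the molecule that recognises antibody complexes and dying cells, are encoded side by side on chromosome 4 of GRCm38, in the order C1qb (ENSMUSG00000036905, chr4:136880129-136886187), C1qc (ENSMUSG00000036896, chr4:136889804-136893065) and C1qa (ENSMUSG00000036887, chr4:136895917-136898803), with 3616 and 2851 bases between them. The 200 bases before the RefSeq start are shown for C1qb (chr4:136886201-136886400, minus strand, GRCm38.p6) and C1qc (chr4:136892915-136893114, minus strand), because these genes kept nearly one proportion to each other in all libraries. Capitals mark matches to GAGGAA, the core letters of the PU box bound by the macrophage factor PU.1, or to their reverse complement.
C1qb: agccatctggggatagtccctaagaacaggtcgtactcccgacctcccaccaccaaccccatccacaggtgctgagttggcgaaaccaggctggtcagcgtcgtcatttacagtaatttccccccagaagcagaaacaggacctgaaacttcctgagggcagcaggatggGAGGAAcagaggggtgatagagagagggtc
C1qc: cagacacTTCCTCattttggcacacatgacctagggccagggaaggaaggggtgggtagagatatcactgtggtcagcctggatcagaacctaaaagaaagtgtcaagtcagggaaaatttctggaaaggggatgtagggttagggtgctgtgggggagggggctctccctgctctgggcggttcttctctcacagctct
The match starts at position -30 relative to the start in C1qb and at -193 in C1qc. Searched on both strands in windows from 250 bases before to 50 after the start, these letters were in 28.3% of 32851 promoters of the genome, and in 7 of the 24 complement genes that had a window (C1qb, C1qc, C1ra, C5ar2, Cd59a, Cfp and Fcna). A match is a run of letters, not a site shown to be bound.

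C1qa had 162.6 and 222.9 CPM in WT 1 and WT 2, and 107.5 and 89.3 CPM in Qa-2- 1 and Qa-2- 2. C1qb had 202.0 and 286.1 CPM for WT against 129.5 and 120.1 CPM for Qa-2- uteri. C1qc had 143.2 and 232.6 CPM for WT against 108.3 and 82.8 CPM. For all 3 chains the WT libraries were the higher ones, without overlap, and WT 2 was the highest. The log2 fold change was 0.97 (SE 0.23, adjusted p = 0.255 by edgeR) for C1qa. It was 0.97 (SE 0.23, adjusted p = 0.255) for C1qb and 0.98 (SE 0.30, adjusted p = 0.281) for C1qc, which was at 0.58 without WT 2. The chains kept nearly the same proportion to each other, since C1qa stood at 0.743 to 0.830 of the CPM of C1qb in the 4 libraries and C1qc at 0.689 to 0.836 of it. Per kilobase of exon that could be counted, a scale that allows levels to be set side by side, C1qb was at 224 in WT and 115 in Qa-2- uteri, C1qa at 185 and 94.6, and C1qc at 97.3 and 49.5 CPM.

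Macrophages, a main source of C1q, were followed with 12 marker genes. All 12 were above the filter, 11 had a log2 fold change above 0, 8 had both WT libraries above both Qa-2- libraries, and 6 (Cd68, Fcgr1, Aif1, Tyrobp, Lyz2 and Lyve1) were higher in WT at an unadjusted p under 0.05, with a list median of 0.71. Over all genes tested, 25.4% had this order and 8.09% passed this p in this direction. Their summed CPM was 1422 and 1559 in WT and 956.2 and 772.7 in Qa-2- uteri, and no marker was at 0. Csf1r, the receptor on which macrophages depend, had 133.4, 217.2, 191.7 and 114.0 CPM in WT 1, WT 2, Qa-2- 1 and Qa-2- 2, and its groups overlapped. The sum of the C1q chains was 507.8 and 741.6 CPM for WT and 345.3 and 292.2 CPM for Qa-2- uteri. Divided by the summed macrophage markers it was 0.357, 0.476, 0.361 and 0.378 in the same order of libraries, so the groups overlapped on this ratio. Divided by Csf1r alone it was 3.81, 3.41, 1.80 and 2.56, with both WT libraries above. Which denominator stands for the number of macrophages was not tested.

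**Figure D2:**
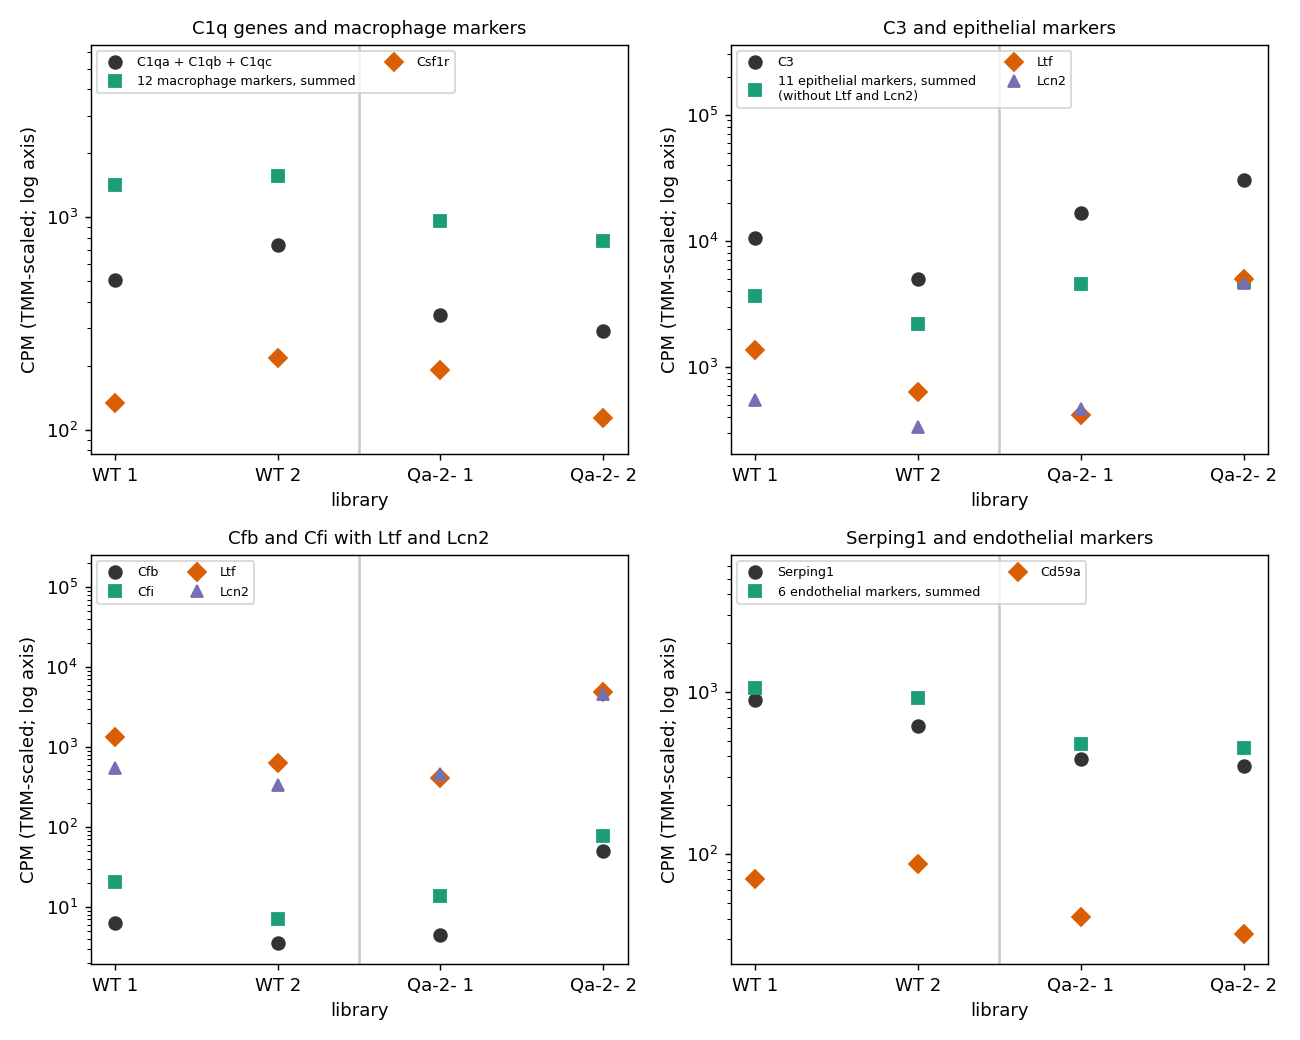
The 4 panels show CPM on TMM-scaled library sizes (log axis) in each library for complement genes and for markers of cell types, with WT left and Qa-2- right of the grey line. The summed C1q genes and the summed macrophage markers were both lower in the Qa-2- libraries, and Cfb, Cfi, Ltf and Lcn2 share one high library, Qa-2- 2.

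C1r and C1s are the proteases carried by C1q, encoded by C1ra and C1s1 on chromosome 6, 6901 bases apart. C1ra had 78.4 and 101.6 CPM for WT and 61.1 and 56.1 CPM for Qa-2- uteri, and C1s1 had 269.8 and 349.9 against 238.4 and 192.6 CPM. Neither overlapped between groups. The log2 fold change of C1ra was 0.62 (SE 0.19, adjusted p = 0.281 by edgeR), and that of C1s1 was 0.52 (SE 0.24, adjusted p = 0.369), or 0.32 without WT 2. C1s1 stood at 3.43 to 3.90 times the CPM of C1ra in the 4 libraries. C1rl, a C1r-like protease gene next to C1ra, had 12.3 and 10.5 CPM for WT and 6.76 and 3.77 CPM for Qa-2- uteri, with a log2 fold change of 1.11 (SE 0.35, adjusted p = 0.286).

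C4 and C2 form the C3-cleaving enzyme of the classical and lectin branches, and their genes lie in the H2 complex on chromosome 17, with C4b 681 kb, C4a 601 kb and C2 527 kb from H2-Q6. How far the congenic segment of B6.K1 reaches was not tested. C4b (chr17:34728380-34743882), which encodes the active mouse C4, had 84.3 and 142.9 CPM for WT and 60.7 and 49.8 CPM for Qa-2- uteri. The groups did not overlap, and the log2 fold change was 1.04 (SE 0.29, adjusted p = 0.275 by edgeR), or 0.60 without WT 2. Its near-identical paralog C4a, which encodes the sex-limited protein, was below the filter with 15, 39, 29 and 16 counts. Pairs that fit both genes equally were not counted, so the split between C4a and C4b is uncertain. C2 (chr17:34862604-34898265) had 47.5 CPM in WT 1, 5.99 in WT 2, 2.62 in Qa-2- 1 and 10.01 in Qa-2- 2. The high value stood in 1 WT library alone and the groups overlapped. The log2 fold change of 2.08 (SE 1.09, adjusted p = 0.418) was -0.11 without WT 1.

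In the lectin branch, 3 of 5 genes were tested, with a median log2 fold change of 0.49. Of these, 2 had both WT libraries on top (25.4% of all genes). Masp1 (ENSMUSG00000022887, chr16:23449417-23520815) encodes the first protease of this branch and, by alternative splicing, the activator of pro-factor D. It had 96.6 CPM in WT 1, 17.1 in WT 2, 12.4 in Qa-2- 1 and 12.04 in Qa-2- 2. The WT libraries were both higher, but most of the difference stood in replicate 1. The log2 fold change was 2.22 (SE 0.79, adjusted p = 0.308 by edgeR), 0.46 without WT 1, and 2.98 (adjusted p = 0.00748) without WT 2. The range of its adjusted p over all alternatives was 0.00748 to 0.818.

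Colec12, a scavenger receptor with a collectin domain, had 122.4 and 170.5 CPM for WT and 113.6 and 94.9 CPM for Qa-2- uteri, with a log2 fold change of 0.49 (SE 0.23, adjusted p = 0.382) that was 0.23 without WT 2. Fcna, the ficolin of macrophages, had 193.8, 81.5, 52.7 and 194.0 CPM in WT 1, WT 2, Qa-2- 1 and Qa-2- 2. It was high in 1 library of each genotype. Its log2 fold change of 0.16 (SE 0.70) turned to -0.63 without WT 1 and to -0.49 without Qa-2- 1. Colec11, a soluble collectin, had 34 and 21 counts in WT and 7 and 7 in Qa-2- uteri, below the filter. Masp2, the protease that cleaves C4 and C2, had 3, 2, 20 and 2 counts, with its highest count in Qa-2- 1. In that library the 8 yolk sac and hepatic-type markers, of which 7 passed the filter, summed to 588.9 CPM, against 10.5 and 60.2 CPM for WT and 35.8 CPM in Qa-2- 2. The median log2 fold change of these markers was -2.50, and their part in the Masp2 counts was not tested.

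C3 (ENSMUSG00000024164, chr17:57203970-57228136), the protein on which all branches converge, had the reverse order to the 7 classical genes without overlap. It was by far the most abundant transcript of the system. It had 10515 CPM in WT 1, 5007 in WT 2, 16716 in Qa-2- 1 and 30494 in Qa-2- 2. Both Qa-2- libraries lay above both WT libraries. The log2 fold change was -1.60 (SE 0.76, adjusted p = 0.383 by edgeR), a level 3.04-fold higher in Qa-2- uteri, and between -2.27 and -1.11 when each library was left out in turn. C3 took 1.03% and 0.479% of all counts in the WT libraries and 1.70% and 3.20% in the Qa-2- libraries. It was the most abundant gene of Qa-2- 2, and ranked 2 in Qa-2- 1, 4 in WT 1 and 18 in WT 2. Among the counts of the 34 genes, C3 made up 77.1% and 62.9% in WT and 90.5% and 94.1% in Qa-2- uteri. Per kilobase it was at 1509 CPM for WT and 4590 in Qa-2- uteri, where the next genes, Serping1 and C1qb, were at 158 and 115. C3 lies 21774 kb from H2-Q6.

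The 200 bases before the RefSeq start of C3 (chr17:57228137-57228336, minus strand, GRCm38.p6) are shown because C3 is the one abundant member that was higher in Qa-2- uteri. Capitals mark a match to TTGCGNAA, the letters of a C/EBP element, which starts at position -45.
C3: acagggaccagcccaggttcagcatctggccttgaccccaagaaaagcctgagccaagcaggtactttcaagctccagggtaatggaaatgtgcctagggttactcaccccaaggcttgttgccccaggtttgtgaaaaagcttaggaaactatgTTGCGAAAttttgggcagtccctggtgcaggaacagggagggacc
On both strands, TTGCGNAA was in 0.798% of the 32851 promoters, and C3 was the only one of the 24 complement genes with a window to hold it. TTCNNNGAA, the GAS element of STAT factors, was in 8.30% of promoters and in 4 of the 24 genes (C1ra, C7, Colec11 and Masp2). TATAAA was in 13.6% of promoters and in 4 of the 24 genes (C3, C3ar1, C7 and Hc). GGTCANNNTGACC, the full estrogen response element, was in 0.070% of promoters and in 0 of the 24. In the 24 genes no match overlapped one to another motif.

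Uterine epithelium, the main C3-producing cell layer of the organ, was followed with 13 markers. All 13 passed the filter and had a log2 fold change below 0, 7 had both Qa-2- libraries above both WT libraries, and 2 (Krt19 and Foxa2) had an unadjusted p under 0.05, with a list median of -0.80. Over all genes tested, 24.5% had this order and 7.09% passed this p as higher in Qa-2- uteri. Their sum was 5529 and 3154 CPM for WT and 5403 and 14249 CPM for Qa-2- uteri, and no marker was at 0. Lactotransferrin (Ltf) and lipocalin 2 (Lcn2), secretory genes of this epithelium, made up most of the last value, with 4933 and 4641 CPM in Qa-2- 2 against at most 1348 and 541.5 CPM in the other libraries. Without them the remaining 11 markers summed to 3639 and 2197 CPM for WT and 4527 and 4675 CPM for Qa-2- uteri. C3 divided by this sum was 2.89 and 2.28 in WT and 3.69 and 6.52 in Qa-2- uteri, so the order of the groups was the same after division. The part of the epithelium in the C3 difference was not tested further.

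The other genes of the alternative branch did not share the order of C3. Cfb (chr17:34856374-34862518), which encodes factor B, the catalytic subunit of the alternative C3-cleaving enzyme, had 6.33 and 3.58 CPM in WT, 4.45 in Qa-2- 1 and 49.8 in Qa-2- 2. Its log2 fold change of -2.45 (SE 1.09, adjusted p = 0.362 by edgeR) stood in 1 library and was 0.15 without Qa-2- 2. Cfb and C2 are 85 bases apart, and a read-through gene model, Gm20547, shares 79.5% of the exon bases of Cfb and 42.8% of those of C2 on the same strand. Pairs in shared bases were not counted and Gm20547 itself had 0 counts in every library, so the level of Cfb rests on 579 of 2825 exon bases and that of C2 on 2216 of 3872.

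Cfp encodes properdin, the stabiliser of the alternative enzyme, which is made by leukocytes. It had 48.1 and 91.2 CPM for WT and 48.9 and 33.0 CPM for Qa-2- uteri. WT 1 and Qa-2- 1 were nearly equal, and the log2 fold change was 0.77 (SE 0.36, adjusted p = 0.385), or 0.23 without WT 2. Cfd, which encodes factor D or adipsin, a protease of fat tissue, had 796 counts in WT 1 and 5, 15 and 4 counts in WT 2, Qa-2- 1 and Qa-2- 2, so that it failed the filter. Of the 8 adipocyte markers, Adipoq had 126, 10, 6 and 0 counts in WT 1, WT 2, Qa-2- 1 and Qa-2- 2, and Retn, Cidec, Plin1 and Fabp4 were also highest in WT 1. Lipe, with 779, 1229, 822 and 925 counts, and Pck1, with 316, 551, 560 and 1579 counts, were lowest there, and Lep had 0 to 1 counts. Of the list, 3 passed the filter, with summed CPM of the list of 77.8 and 67.4 in WT and 46.1 and 75.3 in Qa-2- uteri and a median log2 fold change of 0.07. Their part in the Cfd counts was not tested.

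**Figure D3:**
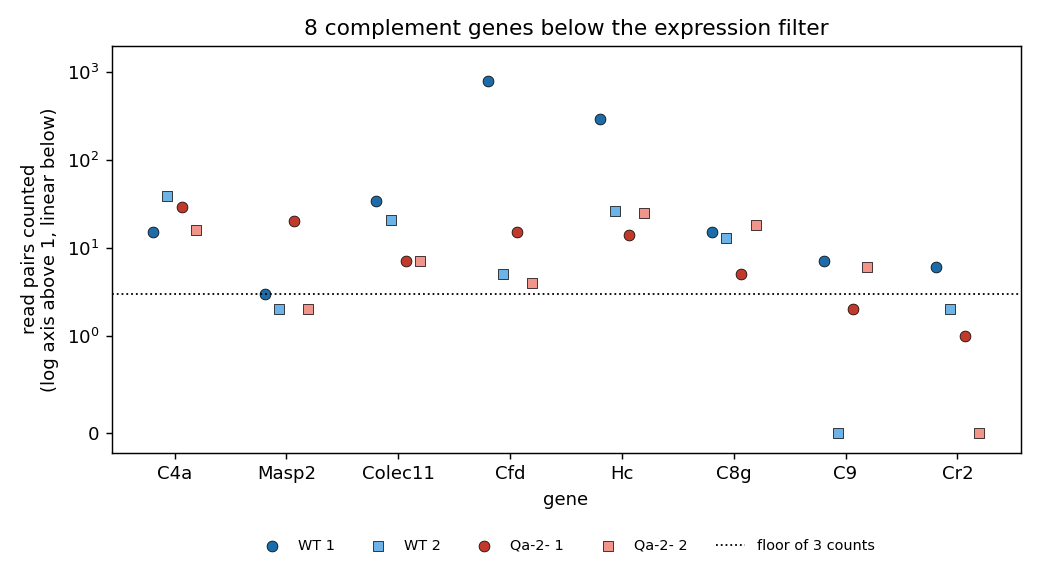
Counts of read pairs in each library (log axis above 1) for the 8 complement genes below the filter, with the floor of 3 counts as a dotted line. Cfd and Hc each have a single high library, WT 1, with 796 and 294 counts.

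The terminal components, which build the membrane attack complex, were scarce. Of 5 genes, 2 were tested, with a median log2 fold change of 1.22. Both had the WT libraries on top, an order seen for 25.4% of all genes. C7 had 15.6 and 26.1 CPM for WT and 13.5 and 5.43 CPM for Qa-2- uteri (log2 fold change 1.14, SE 0.50, adjusted p = 0.358 by edgeR). C6 had 2.27 and 3.15 CPM for WT and 1.61 and 0.600 CPM for Qa-2- uteri (1.29, SE 0.56, adjusted p = 0.358). Without Qa-2- 2 the log2 fold changes were 0.63 for C7 and 0.75 for C6, and without Qa-2- 1 they were 1.94 and 2.17. The libraries had the same order for both genes, WT 2, WT 1, Qa-2- 1 and Qa-2- 2. The summed CPM of 6 smooth muscle markers stood in that order too, with 25999 and 43141 in WT and 22746 and 12276 in Qa-2- uteri, and all 6 of these markers had a log2 fold change above 0 (median 0.99, 0 at an unadjusted p under 0.05). The summed macrophage and mesothelial markers had the same order of libraries. The part of these cells in the C6 and C7 values was not tested. Hc, the gene of C5, had 294 counts in WT 1 and 26, 14 and 25 in WT 2, Qa-2- 1 and Qa-2- 2. C8g had 5 to 18 counts and C9 had 0 to 7 counts, near the floor in several libraries of both genotypes.

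All 7 regulators passed the filter, 3 of them at an unadjusted p under 0.05 and higher in WT, against 8.09% of all genes. The median log2 fold change of this step was 0.28. Cd59a (ENSMUSG00000032679, chr2:104095801-104115354) encodes the membrane anchor that blocks pore formation and had the smallest p of the 26 genes tested. It had 69.8 and 86.5 CPM for WT and 40.7 and 32.4 CPM for Qa-2- uteri. The groups did not overlap, and the log2 fold change was 1.10 (SE 0.20, unadjusted p = 0.00234, adjusted p = 0.246 by edgeR), with values from 0.93 to 1.27 when each library was left out. Serping1 (ENSMUSG00000023224, chr2:84765387-84775444), the C1 inhibitor that shuts off C1r, C1s and the MASP proteases, had 892.8 and 614.3 CPM for WT and 387.3 and 348.0 CPM for Qa-2- uteri. Again the groups did not overlap, and the log2 fold change was 1.04 (SE 0.28, adjusted p = 0.271). Clu, the fluid-phase chaperone clusterin that binds terminal complexes, had 240.2 and 252.3 CPM for WT and 120.3 and 181.9 CPM for Qa-2- uteri, with a log2 fold change of 0.70 (SE 0.25, adjusted p = 0.312) that was 0.44 without Qa-2- 1.

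Markers of other cells were higher in the same libraries as these 3 genes. All 6 endothelial markers were at an unadjusted p under 0.05 and higher in WT (8.09% of all genes were), with a median of 0.86 and sums of 1051 and 917.0 CPM for WT against 475.2 and 448.1 CPM for Qa-2- uteri, and none was at 0. Of 6 mesothelial markers, 5 were at an unadjusted p under 0.05 and higher in WT (median 3.33, sums of 131.2 and 138.6 against 104.3 and 58.3 CPM). Of 6 fibroblast and stroma markers, 2 were (median 0.22), and their sum did not separate the groups, at 15311 and 27638 CPM for WT and 29524 and 15299 CPM for Qa-2- uteri. The part of these cells in the Cd59a, Serping1 and Clu values was not tested.

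The regulators that act on C3 and its enzymes did not separate the groups, apart from Cd46. Cd55, decay-accelerating factor, had 244.5, 107.4, 120.5 and 168.7 CPM in WT 1, WT 2, Qa-2- 1 and Qa-2- 2. Its log2 fold change of 0.28 (SE 0.43) turned to -0.46 without WT 1. Cr1l (Crry), the C3 regulator known to be needed by mouse embryos at the maternal interface, had the most even level of the step, at 98.9 and 80.8 CPM for WT and 76.9 and 87.4 CPM for Qa-2- uteri, with a log2 fold change of 0.13 (SE 0.18, adjusted p = 0.760) that was -0.05 without WT 1. Cd46, which in the mouse is known mainly from the testis, was low, at 0.872 and 1.86 CPM for WT and 2.39 and 3.14 CPM for Qa-2- uteri (-1.02, SE 0.49, adjusted p = 0.387, with -0.60 without WT 1 and -1.67 without WT 2). It was, with C3, one of the 2 genes with both Qa-2- libraries on top. Cfi, the protease factor I that cleaves C3b, had 20.4, 7.16, 13.6 and 77.2 CPM, with its high value in Qa-2- 2 as for Cfb. Its log2 fold change of -1.72 (SE 0.90, adjusted p = 0.420) was 0.02 without that library.

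Qa-2- 2 was thus the high library for C3, Cfb, Cfi, Ltf and Lcn2. For C3 and Cd46 the sign did not rest on it, and for Cfb and Cfi it did. Within the WT group, too, the C3, Cfb and Cfi values, as well as those of Ltf and Lcn2, were higher in replicate 1 than in replicate 2. These genes were singled out after their values were seen.

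**Figure D4:**
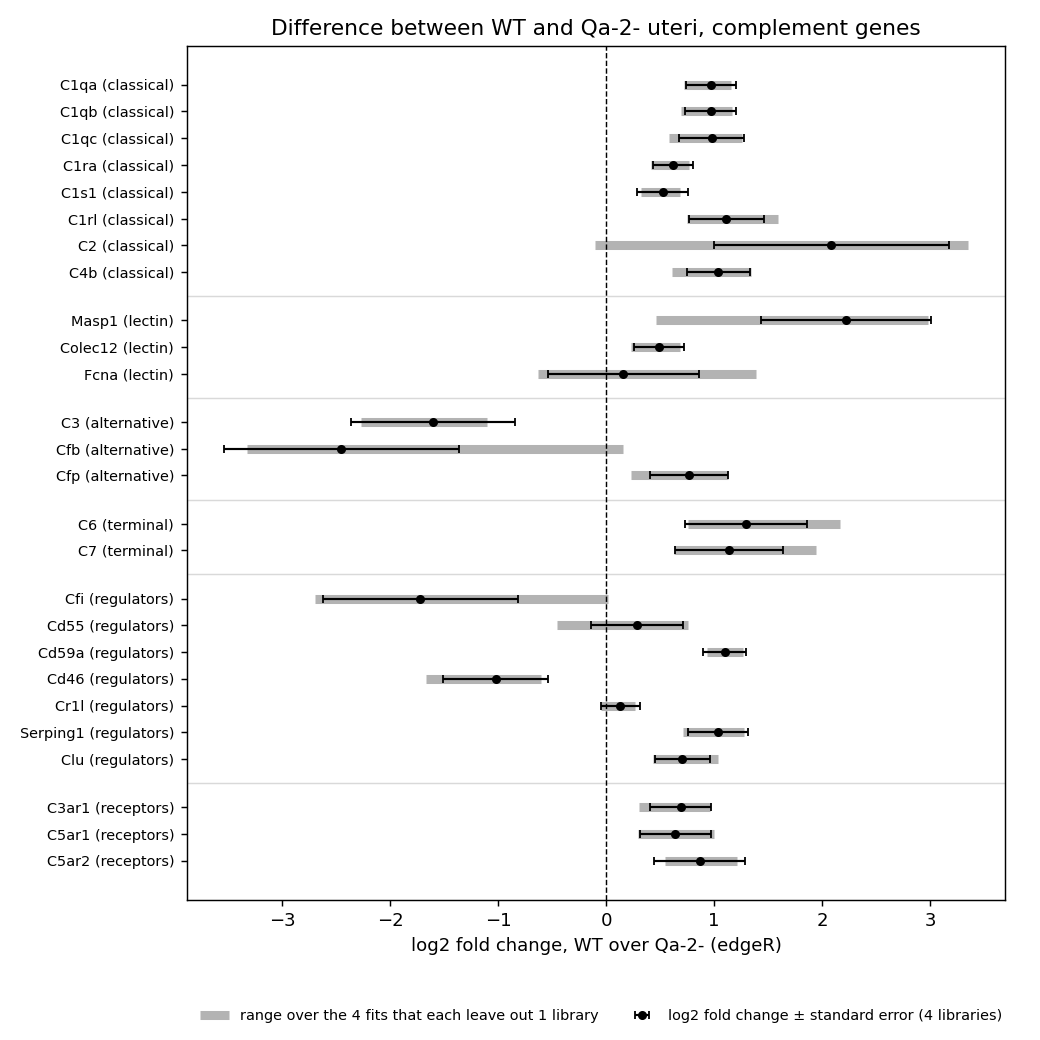
Log2 fold change (WT over Qa-2-) for the 26 complement genes above the filter (points, with bars of 1 standard error from edgeR over 4 libraries) and the range over the 4 fits that each leave out 1 library (grey). C2, Fcna, Cfb, Cfi, Cd55 and Cr1l have grey ranges that cross 0, whereas C1qa, C1qb, Cd59a and Serping1 keep to the right of it.

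Of the 4 receptors, 3 were tested and in all 3 both WT libraries lay above both Qa-2- libraries (25.4% of all genes). Their median log2 fold change was 0.69, and none had an unadjusted p under 0.05 in edgeR. C3ar1, the receptor of the fragment C3a, had 19.0 and 30.4 CPM for WT and 17.0 and 13.7 CPM for Qa-2- uteri (0.69, SE 0.28, adjusted p = 0.342 by edgeR). C5ar1, the chemotactic receptor of C5a, had 14.5 and 22.3 CPM for WT and 14.5 and 9.21 CPM for Qa-2- uteri (0.64, SE 0.33, adjusted p = 0.411), and WT 1 and Qa-2- 1 were nearly equal. C5ar2, the second C5a receptor, had 2.34 and 3.50 against 1.94 and 1.26 CPM (0.87, SE 0.42, adjusted p = 0.395). Without WT 2 the log2 fold changes were 0.31 for C3ar1, 0.29 for C5ar1 and 0.54 for C5ar2, and that of C5ar1 was 1.001 without Qa-2- 1. Of 8 neutrophil markers, whose cells carry C5ar1, 2 passed the filter (median 0.67), Ngp was at 0 in every library, and the list summed to 9.47 and 9.28 CPM for WT and 5.58 and 6.55 CPM for Qa-2- uteri. Cr2, the receptor of B cells and follicular dendritic cells, had 6, 2, 1 and 0 counts, around the floor. The 7 markers of these cells summed to 4.86 and 8.54 CPM for WT and 3.78 and 6.15 CPM for Qa-2- uteri, with 2 above the filter at a median of 0.23.

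Complement genes outside the 34 were followed with a second list of 30, of which 16 passed the filter, 5 had no count in any library and 0 reached an adjusted p under 0.05. At an unadjusted p under 0.05, 3 of the 16 were higher in WT (8.09% of all genes) and 1 was higher in Qa-2- uteri (7.09% of all genes). The median log2 fold change was 0.40. Ptx3, a pattern-recognition molecule that binds C1q, had 14.5 and 8.27 CPM for WT and 1.41 and 1.12 CPM for Qa-2- uteri (3.17, SE 0.40, adjusted p = 0.244 by edgeR). Susd4, a membrane inhibitor, had 8.12 and 5.12 against 3.21 and 3.32 CPM (1.02, SE 0.33), and Itgam, a chain of complement receptor 3, had 15.2 and 25.3 against 12.3 and 7.32 CPM (1.04, SE 0.37). These log2 fold changes were 0.62 for Susd4 without WT 1 and 0.62 for Itgam without WT 2. Cpn1, the carboxypeptidase that inactivates C3a and C5a, had the reverse order, with 22.7 and 24.6 CPM for WT and 36.7 and 43.7 CPM for Qa-2- uteri (-0.77, SE 0.17, adjusted p = 0.246).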

How the data were processed

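RNA from a frozen piece of each of 4 uteri was sequenced, and the authors deposited raw counts, the number of read pairs assigned to each gene. Per the labels and file headers, they come from STAR 2.7.3a and featureCounts 2.0.0 on GRCm38.p6 (exons by gene, reverse strand, both ends mapped, mapping quality of at least 3). Pairs with several positions or genes were not counted, which lowers counts of paralogs and overlapping genes. Symbols came from GENCODE M21 (55240 of 55421 identifiers found) and promoters from RefSeq (GRCm38.p6), where 24 of the 34 members were matched, and C1qa, C2, C4a, C4b, Cfb, Cfi, Clu, Colec12, Masp1 and Serping1 were not. The number of sample columns not used was 0.

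Groups follow the strain labels. The labels do not say more of the replicates than their numbers, so p-values measure the spread between these samples. A check for a library deposited under both numbers of a group found none (chi-square per gene between replicates of 188.4 in WT and 117.8 in Qa-2-). Genes were filtered as the study methods word it (1 CPM or more in 2 or more samples), but the number left here is lower than the one stated there, so the tested gene set is not the same. These methods name no test for the transcriptome. Counts were TMM-normalized (factors from 0.957 to 1.05) and compared with edgeR 4.0.16 (glmQLFit, glmQLFTest) in R 4.3.3, with Benjamini-Hochberg adjustment over 14492 genes. The steps were tested on simulated counts. The standard error is the log2 fold change divided by the square root of F. CPM are on TMM-scaled library sizes, and exon bases shared with another gene on the same strand were left out of lengths.

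All 34 members are named. The CPM of every library is given for members with an unadjusted p under 0.05, a mean over 50 CPM, or groups that do not overlap with an absolute log2 fold change over 0.5, and for others where they bear on a result. Of the marker lists and other complement genes, those at an unadjusted p under 0.05 or among the 4 most abundant could be named. Single adipocyte and trophoblast markers, Ngp and genes at single-library values were picked with their values in view. The values of 1 gene of the second complement list are not reported here. The members and lists were chosen with earlier results of these data known. Alternatives were DESeq2 1.42.0, upper-quartile factors, library totals, a replicate block, a robust fit, no filter, a filter of 10 counts or more throughout, C4a and C4b summed, each library left out in turn (the lone library of a group is assumed to vary like the other group) and, added after the data were seen, a crossed pairing.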

Additional observations from a re-analysis of the deposited data

How the results depend on the processing

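With 2 libraries per group, single libraries decided many values. DESeq2 called 700 of 14492 genes (404 higher in WT, 296 higher in Qa-2-), 7 members and 22 genes of the other lists. Without a filter 61 genes (47 and 14) and 5 genes of the other lists were called, and 21 of 34 members had an unadjusted p under 0.05 (18 higher in WT and 3 in Qa-2-, against 5.79% and 4.99% of all genes). Leaving out 1 library gave 0 to 93 called genes (93 without WT replicate 2, 4 without WT replicate 1), 0 to 1 called members (Masp1), 0 to 6 genes of the other lists, and 2 to 12 members at an unadjusted p under 0.05, with 2 remaining without Qa-2- replicate 2. The 2 to 12 members were counted in both directions together, in fits where 1 group was a single library. They are given here without the share of all genes in the same fits, so these counts alone do not set the members apart from other genes. The median of the members (0.74) was 0.64 with library totals, where the median of all genes was -0.08. The median of the members was 0.59 to 1.01 with 1 library left out, lowest without WT replicate 2 and highest without Qa-2- replicate 1. With 1 library left out, the sign changed for the log2 fold change of C2 (-0.11 to 3.35), Fcna (-0.63 to 1.38, also -0.49), Cfb (-3.33 to 0.15), Cfi (-2.70 to 0.017), Cd55 (-0.46 to 0.75) and Cr1l (-0.052 to 0.26). The cause of these changes was not tested, apart from the fewer samples in each fit. For 19 of the 26 members the log2 fold change moved by more than 1.5 times with 1 library left out. Since few genes of any kind passed the threshold in most fits, a member that stayed below it says little about stability.

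The replicate numbers did not pair the samples, since same-numbered deviations from the group means had a correlation of -0.37. With the replicate block, 2 genes and 0 members were called, and the median of the 26 members was 0.73. In that fit 8 members had an unadjusted p under 0.05, all higher in WT, against 4.95% of all genes. The share of all genes higher in Qa-2- uteri was 4.24%. With the crossed pairing, 0 genes were called, and 19 members had an unadjusted p under 0.05 (17 higher in WT and 2 in Qa-2-, against 12.9% and 12.1% of all genes).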
